A study of Mus musculus with 20 samples.

Results

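Processed pseudogenes are copies of spliced mRNAs that were written back into the genome, and 9792 of the 115270 transcripts measured in these mouse brain samples were of this kind. They were chosen by the transcript type of their identifier in an annotation of GRCm38, 9510 as processed pseudogenes and 282 as transcribed processed pseudogenes, each from a gene of its own. The 20 libraries came from male mice of 13.5 months and fell into 4 groups of 5, namely hippocampus and neocortex of WT mice and the same tissues of miR-324-null mice. All mice are labelled as C57BL/6J. The miR-324-null mice lack *Mir324* in every tissue through a CRISPR deletion made in embryos of mixed C57BL/6 and CBA/ca origin, were crossed back to C57BL/6J and were then kept as a null line beside a WT line, so that the deletion and any other difference between the lines cannot be told apart. The libraries were stranded mRNA libraries of bulk tissue, in which fewer cells of a type and less RNA per cell cannot be told apart. The labels do not say whether samples of the same number in both tissues come from the same mouse, nor give the mouse behind each sample, and the p-values therefore measure the spread between these samples.

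When the enzyme of a LINE element copies a cellular mRNA into DNA, the copy that lands in a new place has no introns and usually no promoter of its own. Most such copies in mammals collect mutations and lose their reading frame, and genes with abundant mRNA in the germ line, such as those of ribosomal proteins and glycolysis, have the most of them. Some are transcribed from promoters near the place where they landed. Since a young copy differs from its parent gene at few bases, reads from the parent mRNA and from the copy can be told apart only where they cross such a base.

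That resemblance can be read directly from 60-base windows of 6 members that the results turn on, each set beside the same stretch of a coding exon of the gene from which it was copied. The sequences are transcript sequences of GENCODE on GRCm38, 5′ to 3′, and the capitals mark the bases that differ within the pair.
Gm13394, chr2:28934229-28934288 on the minus strand: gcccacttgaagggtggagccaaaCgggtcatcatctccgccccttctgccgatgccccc
Gapdh, exon 4, chr6:125162981-125163040 on the minus strand: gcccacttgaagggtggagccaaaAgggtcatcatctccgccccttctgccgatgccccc
Gm8730, chr8:102865352-102865411 on the minus strand: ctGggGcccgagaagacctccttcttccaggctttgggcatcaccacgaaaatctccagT
Rplp0, exon 4, chr5:115561168-115561227 on the plus strand: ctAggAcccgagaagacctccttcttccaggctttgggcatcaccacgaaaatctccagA
Gm6969, chr12:24638673-24638732 on the minus strand: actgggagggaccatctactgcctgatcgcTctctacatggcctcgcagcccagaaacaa
Cox7a2l, exon 3, chr17:83502607-83502666 on the minus strand: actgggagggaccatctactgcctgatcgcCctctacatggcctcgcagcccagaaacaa
Rps3a3, chr13:108670810-108670869 on the plus strand: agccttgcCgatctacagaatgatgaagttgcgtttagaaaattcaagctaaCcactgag
Rps3a1, exon 3, chr3:86141326-86141385 on the minus strand: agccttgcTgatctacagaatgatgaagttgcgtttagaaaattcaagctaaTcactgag
Gm4811, chr13:64928228-64928287 on the minus strand: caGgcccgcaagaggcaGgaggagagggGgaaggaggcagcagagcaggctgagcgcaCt
Smarce1, exon 10, chr11:99213205-99213264 on the minus strand: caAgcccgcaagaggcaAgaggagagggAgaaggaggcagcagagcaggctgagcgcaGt
Gm7832, chr5:91761274-91761333 on the minus strand: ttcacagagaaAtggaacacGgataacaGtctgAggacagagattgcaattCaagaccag
Vdac2, exon 5, chr14:21837837-21837896 on the plus strand: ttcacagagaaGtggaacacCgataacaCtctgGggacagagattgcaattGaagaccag

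With positions counted from 1 at the 5′ end of the window and the parent base first, the *Gapdh* pair differs by A25C, which is the only mismatch over the 1000 bases of *Gm13394*. The *Cox7a2l* pair differs by C31T, its only mismatch beside 6 gap bases over 342 bases. Within their windows the *Rps3a1* pair differs by T9C and T53C and the *Smarce1* pair by A3G, A18G, A29G and G59C. Over their whole lengths *Rps3a3* has 9 mismatches, *Gm8730* 12, *Gm4811* 23 and *Gm7832* 24.

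The members were short and mostly unspliced. Their median length was 532 bases, against 1824 bases for protein-coding transcripts, and 8867 of them (90.6%) had a single exon. A sequence was found for 9791 of them, of which 4337 aligned to a protein-coding transcript with at least 90% identity over at least 50% of their length. The gene of that transcript is called the parent here. There were 1575 different parents. *Gapdh*, a glycolytic enzyme, had the most copies with 162, followed by *Hmgb1*, a chromatin protein, with 109 and by the ribosomal protein genes *Rpl7a* with 85, *Rpl21* with 82 and *Rpl29* with 68. On their own strand 8607 members (87.9%) lay outside other annotated genes, 1020 (10.4%) within an intron and 165 over an exon.

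Most members gave no signal in these libraries. The estimated counts of a library, the number of reads that the authors' kallisto run assigned to its transcripts, summed to between 12752439 and 19617765 over all transcripts, and the members took between 0.240% and 0.341% of them. Between 513 and 686 members (5.24% to 7.01%) had more than 3 counts in a given library, which is taken here as the smallest level that the depth can show, and this floor covers counting error only. Over all 20 libraries, 5307 members (54.2%) were at 0 throughout, 1435 exceeded 3 counts in at least 1 library and 223 did so in every one. Markers of the choroid plexus varied most within groups, from 40.8 to 4584 CPM (estimated counts scaled to a common library size) in WT hippocampus and from 22.1 to 800.1 CPM in miR-324-null neocortex. Striatal markers were lower in hippocampus, at 63.3 to 100.5 CPM against 92.2 to 243.4 CPM in WT neocortex. In miR-324-null samples they were at 58.4 to 74.3 CPM in hippocampus and at 151.2 to 390.0 CPM in neocortex. Of the striatal genes 1 was lower in all hippocampus samples. Over all samples, blood markers summed to between 212 and 1407 CPM, microglia markers to between 177 and 282 CPM and oligodendrocyte markers to between 3998 and 7330.4 CPM. In the blood, microglia and oligodendrocyte lists 0 genes separated the tissues. The part of these cell types in the results was not tested.

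In TPM, which scales counts to the length of the transcript and the depth of the sample, the levels of the members were concentrated in a few. The 10 highest held 41.3% of the TPM summed over all members and the 100 highest held 85.2%. A mean of 10 TPM or more was reached by 107 members and of 100 TPM or more by 25. *Gm13394* had the highest mean with 1223 TPM, followed by *Gm7536*, a copy of the ribosomal protein gene *Rpl27a*, with 674 TPM, and *Rps23-ps1* with 501 TPM. *Gm6472*, a copy of *Rps7*, had 396 TPM, and *Rpl23a-ps3* had 389 TPM. These were followed by *Gm19220* with 346 TPM, *Gm12918* with 331 TPM, *Gm11518* with 291 TPM, *Rpl30-ps8* with 285 TPM and *Rpl28-ps1* with 257 TPM. *Gm12918* matches *Rpl13*, and *Gm11518* matches *Rpl27*, over their whole length at every base.

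Much of this level belonged to members that share all of their sequence with other transcripts. Of the 9791 members with a sequence, 556 (5.68%) had no stretch of 31 bases that was absent from every other transcript, and these held 48.1% of the summed TPM and 33.7% of the counts. A further 504 members (5.15%) with 1 to 49 such unique stretches held 26.1% of the TPM. The remaining 8731 (89.2%) had 50 or more and held 25.8%. Among the 10 highest members, 7 had no unique stretch at all, *Gm13394* had 24 and *Rpl23a-ps3* had 30. *Gm19220* on chromosome 12 stood apart with 768 unique stretches, and its best protein-coding match, *Naa10*, was only 75.3% identical. For a member with no unique stretch, the division of reads between it and its parent rests on the model used to estimate the counts, and its level is uncertain for that reason. The same holds for reads outside the unique stretches of the other members. In *Gm13394* only 24 of 970 stretches were unique, and in *Rpl23a-ps3* only 30 of 438.

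**Figure D1:**
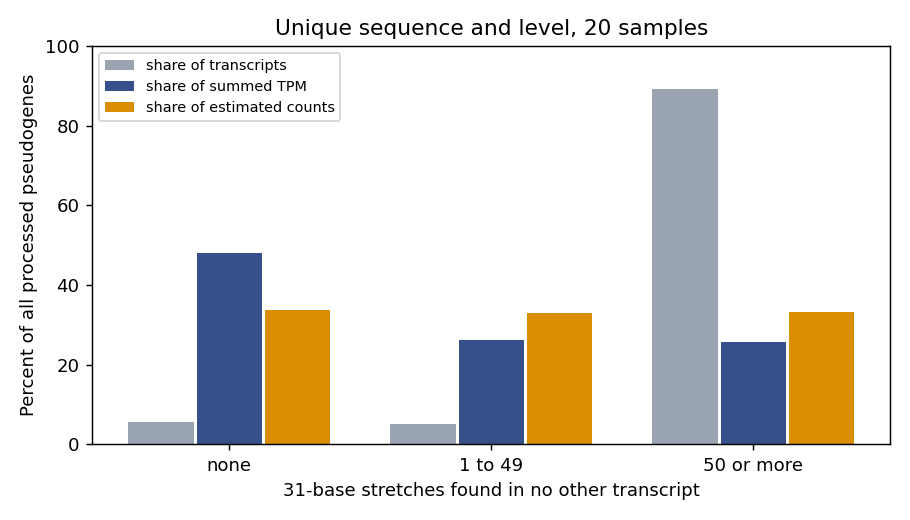
Share of the members (grey), of their summed TPM (blue) and of their estimated counts (orange), in percent, for members with 0, 1 to 49 and 50 or more 31-base stretches found in no other transcript. The 5.68% of members with no unique stretch hold 48.1% of the TPM, and the 89.2% with 50 or more hold 25.8%.

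Over all members the summed TPM differed little between groups. In WT hippocampus it was 11514, 11963, 11013, 12086 and 10718 in samples 1 to 5, and in miR-324-null hippocampus 11122, 10775, 12358, 10445 and 10370. In the neocortex it was 12060, 11646, 11071, 12050 and 11541 in WT and 11769, 11148, 11944, 10968 and 10679 in miR-324-null samples. The ranges overlapped in every comparison. The means were 11459 ± 591 and 11014 ± 809 (SD, n = 5 each) in hippocampus and 11674 ± 410.1 and 11302 ± 537 in neocortex, a difference of -3.88% and -3.19% in the miR-324-null samples, which was not tested. With only members that had at least 50 unique stretches, the sign turned to 3.60% and 7.83%.

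Summed by the family of the parent gene, copies of cytosolic ribosomal protein genes made up 1103 members (11.3%) and 43.2% of the TPM. Their level was 4844 ± 232 TPM in WT and 5115 ± 269.8 TPM in miR-324-null hippocampus, and 4810 ± 153 TPM and 4863 ± 167 TPM in WT and miR-324-null neocortex (SD, n = 5). Copies of glycolysis genes, 199 members, held 11.7% of the TPM and had the widest spread between samples of 1 group. They summed to 1802 ± 592 TPM in WT and 841 ± 651 TPM in miR-324-null hippocampus, and to 1840.5 ± 564 TPM and 826 ± 637 TPM in neocortex. Most of this was 1 member, *Gm13394*, whose own means were 1726 ± 590 and 714 ± 652 TPM in hippocampus and 1756 ± 566 and 696 ± 636 TPM in neocortex (SD, n = 5), and which was near 0 in miR-324-null samples 4 and 5 of both tissues. Of the glycolysis copies 10 were tested in hippocampus and 12 in neocortex, and their median log2 differences were 0.041 and -0.10. By edgeR 0 were called for genotype, where 0.0288% and 0.0246% of all transcripts were called. So few members cannot show a difference from these shares. Copies of respiratory chain and ATP synthase genes, 106 members, held 7.09%, and the 5455 members without a parent held 9.67%.

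By chromosome, the X chromosome carried the most members with 949, followed by chromosome 7 with 711 and chromosome 1 with 636. On several chromosomes most of the TPM, or much of it, came from 1 member. Chromosome 3 held 15.6% of the TPM, of which 38.1% came from *Gm7536*, and chromosome 2 held 15.5%, of which 69.4% came from *Gm13394*. *Mir324* lies on chromosome 11, at chr11:70012043-70012131, where 422 members held 3.71% of the TPM and 68.9% of this belonged to *Gm11518*. Only 78 members lay within 10 Mb of *Mir324*. The Y chromosome carried 94 members, of which 0 passed the filter on low counts.

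By its estimated counts the highest member, *Gm13394*, was present in some samples and nearly absent in others. It lies at chr2:28933610-28934609 on the minus strand, inside an intron of *Cfap77* on the same strand. In WT hippocampus its level was 1126, 1149, 557, 1029 and 529.9 CPM in samples 1 to 5, and in miR-324-null hippocampus 608, 628, 596, 0 and 0.547 CPM. In the neocortex it was 1065, 1115, 542, 1026 and 579.7 CPM in WT and 577, 518, 575, 1.24 and 0.409 CPM in miR-324-null samples. Samples 4 and 5 of the miR-324-null group were thus at or near 0 in both tissues, whereas WT samples 1, 2 and 4 were above 1000 CPM in both, and the remaining 10 samples lay between 518 and 628 CPM. The fitted genotype differences, -1.26 (SE 1.34) in hippocampus and -1.37 (SE 1.25) in neocortex on the log2 scale, did not pass the edgeR quasi-likelihood test with Benjamini-Hochberg adjustment (adjusted p = 0.9996 and 0.942).

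*Gapdh* itself moved the other way. In WT hippocampus it was at 1412, 1351, 1869.9, 1277 and 1870.3 CPM in samples 1 to 5, and in miR-324-null hippocampus at 2065, 2189, 1896, 2422 and 2424 CPM. The samples in which *Gm13394* was nearly absent were those with the highest *Gapdh*. In the neocortex *Gapdh* was between 1254 and 1902 CPM in the 8 samples that had *Gm13394* and between 2346 and 2568 CPM in the 2 that had not. Added together, *Gm13394* and *Gapdh* lay between 2275 and 2818 CPM in all 20 samples.

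**Figure D2:**
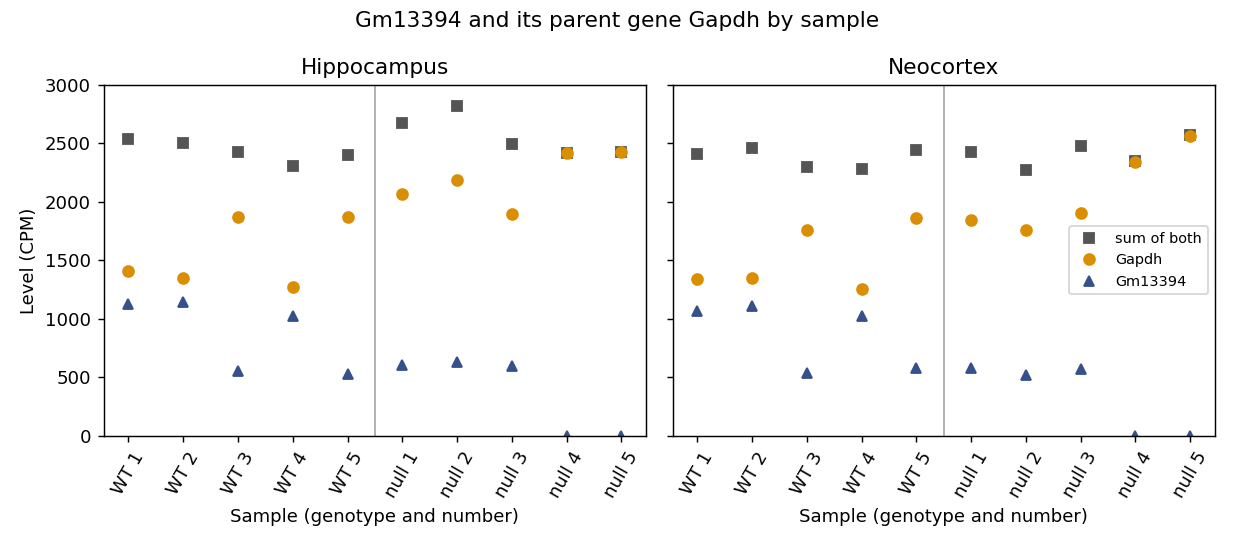
CPM of *Gm13394* (triangles), of its parent gene *Gapdh* (circles) and of their sum (squares) in each WT and miR-324-null (null) sample of hippocampus (left) and neocortex (right). *Gm13394* is at or near 0 in null samples 4 and 5 of both tissues, where *Gapdh* is above 2300 CPM, while the sum stays between 2275 and 2818 CPM.

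*Gm13394* was not alone in this. A high-or-low pattern was defined after these values had been seen, by 3 conditions. Every sample had to lie either under 0.125 or at 0.25 or more of the member's own highest CPM, the highest sample had to hold at least 20 counts, and both states had to occur within at least 1 of the 4 groups. Of the 333 members with 20 counts in a sample, 44 (13.2%) met the conditions. In 16 of these (36.4%) the state was the same in hippocampus and neocortex for each of the 10 numbered pairs of samples. Among all other transcripts 4110 of 41897 (9.81%) met the conditions, and 49 of these (1.19%) had the same state in all 10 pairs. The contrast was much smaller where 9 or 10 pairs had to agree. That held for 21 of the 44 members and for 1155 of the 4110 others. These counts are a description with no test, since *Gm13394* led to the conditions.

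The 16 members lay on 11 chromosomes, all 16 had a parent, and they had between 17 and 831 unique stretches, 13 of them 50 or more. In 6 of them the high state occurred in samples of only 1 genotype. The parent had the lower mean in the samples with the high state in 11 of 16 cases in each tissue, and in 6 of 16 every such sample was below every sample of the low state. Both counts hold some parents more than once. *Gm9855* and *Tdg-ps* share the parent *Tdg*, and *Rps3a2* and *Rps3a3* share *Rps3a1* and were high in 1 sample of each tissue. The reverse, with every sample of the high state above, was found for the matches of *Gm4735* in both tissues and of *Gm8983* in neocortex, where *Ccni* was at 239 to 303 CPM against 191 to 236 CPM. The labels give no mouse for a number, and whether the states follow differences between mice in these sequences was not tested.

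*Gm8730*, a copy of the gene for the ribosomal stalk protein *Rplp0*, showed the pattern across genotypes. In WT hippocampus it was at 34.8, 32.7, 35.6, 32.1 and 29.8 CPM, and in miR-324-null hippocampus at 0.129, 0.160, 0.678, 0.150 and 31.4 CPM. The neocortex gave 26.1, 27.3, 22.2, 28.3 and 28.1 CPM in WT and 0.465, 0.265, 0.465, 0.484 and 27.9 CPM in miR-324-null samples. All WT samples and miR-324-null sample 5 had it, and miR-324-null samples 1 to 4 did not, in both tissues. *Rplp0* was at 159.8, 165.8, 161.7, 146.3 and 145.8 CPM in WT hippocampus and at 214, 246, 194.3, 194.1 and 147.9 CPM in miR-324-null hippocampus, where sample 5 alone fell within the WT range. The log2 differences of *Gm8730* between genotypes, -2.33 (SE 1.29) and -2.15 (SE 1.18), did not pass (edgeR adjusted p = 0.9996 and 0.843).

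*Gm6969*, a copy of *Cox7a2l*, which acts in the assembly of respiratory supercomplexes, had the reverse arrangement. It was at 0.193, 0, 0, 0.129 and 9.58 CPM in WT hippocampus and at 20.8, 20.9, 24.1, 22.4 and 17.6 CPM in miR-324-null hippocampus. In the neocortex it was at 0.216, 0, 0, 0 and 12.05 CPM in WT and at 24.0, 19.3, 22.4, 20.04 and 21.6 CPM in miR-324-null samples. WT sample 5 alone among the WT samples had it, in both tissues and at a lower level than any miR-324-null sample. The groups did not overlap, and the log2 differences of 3.42 (SE 1.30) and 3.12 (SE 1.33) did not pass either (edgeR adjusted p = 0.9996 and 0.793).

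*Rps3a2* and *Rps3a3*, copies of the gene for the small-subunit protein *Rps3a1* on chromosomes 14 and 13, were high in miR-324-null sample 5 alone. *Rps3a2* reached 44.3 CPM in its hippocampus and 39.5 CPM in its neocortex, and *Rps3a3* 36.7 and 34.7 CPM. No other sample of either tissue exceeded 0.784 CPM of either. *Rps3a1* was at 232 and 217 CPM in the 2 samples that had both copies, below the 308 to 357 CPM of the other hippocampus samples and the 264 to 313 CPM of the other neocortex samples.

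Other members changed state elsewhere. *Gm9855* and *Tdg-ps*, copies of the DNA repair gene *Tdg* on chromosomes 10 and 15, were high in WT samples 4 and 5, and *Gm5905*, a copy of *Rps9*, in WT samples 1, 3, 4 and 5. *Gm4735* was at 38.8 to 49.4 CPM in miR-324-null samples 1, 2 and 5 and at no more than 1.74 CPM in all others. Its closest match, the enolase gene *Eno1b*, rose and fell with it rather than against it, at 238 to 283 CPM in the hippocampus of those 3 samples and at no more than 1.62 CPM in the other 7. *Rps15a-ps8* was high in WT samples 2, 4 and 5 and in miR-324-null samples 1 and 5, so that both states occurred in each genotype.

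**Figure D3:**
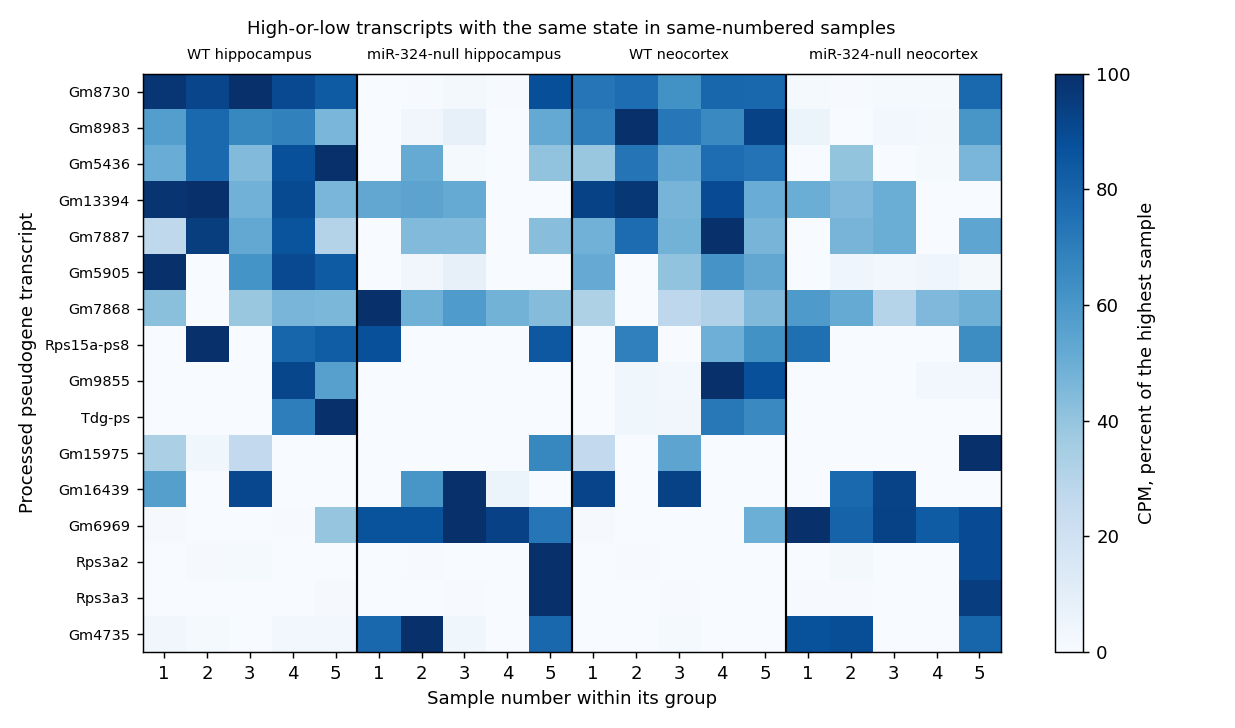
CPM of the 16 members with the high-or-low pattern (rows) in each of the 20 samples (columns, by group and sample number), as a percent of the member's highest sample, from white at 0 to dark blue at 100. Within a row, the blue samples of the hippocampus carry the same numbers as the blue samples of the neocortex in the same genotype.

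The comparison of genotypes asked which members differ when *Mir324* is absent. In the hippocampus 254 members passed the filter on low counts and 1 was called at an adjusted p of at most 0.05, higher in miR-324-null samples (edgeR quasi-likelihood test, Benjamini-Hochberg adjustment over all 34760 transcripts tested). That is 0.394% of the members tested, against 0.0288% of all transcripts tested. In the neocortex 2 of 289 members (0.692%) were called, both higher, against 0.0246% of all transcripts. The members called in either tissue had at most 1.32 counts in any WT sample of that tissue. They passed the filter through miR-324-null samples alone and could only be called higher. At an unadjusted p under 0.05 stood 18 members (7.09%) in hippocampus, 14 of them higher, against 4.69% of all transcripts, and 21 (7.27%) in neocortex, 14 of them higher, against 6.26%. The groups did not overlap in 8 members (3.15%) in hippocampus, against 1.22% of all transcripts, and in 14 (4.84%) in neocortex, against 1.5%. The median log2 difference of the members was 0.0069 and 0.010 in hippocampus and neocortex, beside -0.00037 and 0.0063 over all transcripts. Summed to genes, 3 of 294 members were called in hippocampus and 6 of 332 in neocortex, all higher, where 0.0920% and 0.208% of all genes were called.

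The member called in both tissues was *Gm4811*, a copy of *Smarce1*, which encodes a subunit of the BAF chromatin remodelling complex. It lies at chr13:64927942-64929161 on the minus strand, outside other annotated genes, and had 417 unique stretches. In WT hippocampus it was at 0, 0, 0, 0.104 and 0 CPM, and in miR-324-null hippocampus at 2.05, 1.42, 1.96, 2.38 and 2.43 CPM. All 5 WT samples of the neocortex were at 0, and its level was 2.28, 2.05, 2.41, 1.99 and 2.15 CPM in the miR-324-null neocortex. It was thus found in every miR-324-null sample of either tissue and in WT samples only at a trace. Against a floor of 3 counts per library it was at least 9.74-fold higher in miR-324-null hippocampus and at least 10.6-fold higher in miR-324-null neocortex. The fitted log2 differences, which depend on a prior count, were 6.49 (SE 0.665) with an edgeR adjusted p of 0.0101 and 8.14 (SE 0.413) with an edgeR adjusted p of 0.00759.

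*Smarce1* itself was at 44.6 ± 0.633 CPM in the hippocampus of WT and 42.4 ± 2.11 CPM in that of miR-324-null mice and at 45.1 ± 3.20 and 41.4 ± 0.932 CPM in neocortex (SD, n = 5). Without WT sample 3 or 5, or miR-324-null sample 3, 4 or 5, the hippocampal call of *Gm4811* was lost, at edgeR adjusted p-values of 0.0556, 0.0525, 0.0602, 0.0606 and 0.0505. Without miR-324-null sample 1, 2, 3 or 4 the neocortical call was lost, at 0.0573, 0.0615, 0.0555 and 0.0595.

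*Gm6304*, on chromosome 18, is a copy of *Mrpl27*, which encodes a protein of the mitochondrial ribosome, and had 124 unique stretches. In the neocortex it was at 0, 0, 0, 0 and 0.0767 CPM in WT and at 1.11, 0.729, 1.47, 1.40 and 1.04 CPM in miR-324-null samples. It was at least 5.58-fold higher, with a fitted log2 difference of 5.74 (SE 0.677, edgeR adjusted p = 0.0279). In the hippocampus, where too few counts remained for a test, it was at 0 in all WT samples and at 1.11, 0.637, 1.07, 0.622 and 1.13 CPM in miR-324-null samples. *Mrpl27* itself was lower in miR-324-null samples, at 26.5 ± 0.572 against 10.5 ± 0.589 CPM in hippocampus and 24.3 ± 1.69 against 9.09 ± 0.514 CPM in neocortex. Leaving out any 1 of the 10 neocortex samples ended the call of *Gm6304*, with edgeR adjusted p-values from 0.0554 without miR-324-null sample 5 to 0.138 without miR-324-null sample 4.

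The parents of both members lie on chromosome 11, as *Mir324* does, although the members themselves do not. The *Smarce1* window lies at chr11:99213205-99213264 and *Mir324* at chr11:70012043-70012131. The part of the parents' position on the chromosome in these values was not tested. The shared chromosome of the parents was seen in the values and then counted for all members tested, both of these members included. The counts are a description with no test. *Gm4811* had at most 1.32 counts in any WT hippocampus sample, and *Gm6304* at most 1.12 in any WT neocortex sample. Members with so few WT counts passed the filter through miR-324-null samples alone and could only be higher there. Of 16 members in the hippocampus whose parent is on chromosome 11, 5 had an unadjusted p under 0.05, all of them higher in miR-324-null samples, whereas 11 of 186 members with a parent on another chromosome (5.91%) and 2 of 52 without a parent did. In the neocortex 7 of 19 did, all of them higher, against 13 of 203 (6.40%) and 1 of 67. Among the 7 tested members that lie on chromosome 11 themselves, 0 had an unadjusted p under 0.05 in either tissue and 0 were called by edgeR. Of all transcripts 4.69% in hippocampus and 6.26% in neocortex had such a p, and 0.0288% and 0.0246% were called. With 7 members, 0 cannot be told from these shares. The gene-level calls in neocortex also held *Gm6741*, which has no unique stretch and whose parent *Nanp* lies on chromosome 2. Its groups did not overlap there, and its log2 difference summed to genes was 5.49 (SE 0.814, edgeR adjusted p = 0.0115). As a transcript it did not pass (edgeR adjusted p = 0.352).

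4 further members with a parent on chromosome 11, named here after their values were seen, had groups that did not overlap in either tissue. *Gm5540*, a copy of the acyl-CoA synthetase family gene *Acsf2*, was at 0.267, 0, 0.446, 0.178 and 0 CPM in WT hippocampus and at 2.15, 1.99, 1.91, 2.29 and 2.71 CPM in miR-324-null hippocampus. In neocortex 1 WT sample had 0.126 CPM and the others 0, whereas it was at 1.71, 3.49, 1.72, 1.49 and 1.95 CPM in miR-324-null samples. Its log2 differences of 3.58 (SE 0.759) and 5.87 (SE 0.786) did not pass over all transcripts (edgeR adjusted p = 0.558 and 0.0553), and summed to genes they did (0.0195 and 0.000408).

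*Gm4875*, a copy of the actin-binding gene *Lasp1*, was at 0, 0.198, 0, 0.0787 and 0.446 CPM in WT hippocampus and at 1.70, 1.41, 1.36, 1.27 and 1.43 CPM in miR-324-null hippocampus. Its neocortical level ranged from 0 to 0.210 CPM in WT and from 1.77 to 2.99 CPM in miR-324-null mice, and the log2 difference was 4.75 (SE 0.645, edgeR adjusted p = 0.0553, and 0.000200 summed to genes). *Gm7666*, a copy of the mitochondrial membrane protein gene *Phb* that overlaps an exon of *Fyb* on the same strand, was at 0, 1.42, 0.0127, 2.19 and 1.21 CPM in WT hippocampus. In miR-324-null hippocampus it was at 11.3, 14.0, 10.1, 8.51 and 12.1 CPM, above every WT sample, and its log2 difference of 3.53 (SE 0.950) did not pass (edgeR adjusted p = 0.975) but did so summed to genes (0.0438). *Gm10259*, a copy of the nuclear import gene *Kpna2*, was at 1.78 CPM or less in WT hippocampus and between 2.76 and 12.5 CPM in miR-324-null hippocampus. In neocortex its log2 difference was 5.67 (SE 1.05, edgeR adjusted p = 0.294, and 0.000404 summed to genes). In the other tissue *Gm4875*, *Gm7666* and *Gm10259* did not pass at either level. The edgeR adjusted p-values were 0.758 for *Gm4875* in hippocampus, 0.646 for *Gm7666* in neocortex and 0.9996 for *Gm10259* in hippocampus. Summed to genes, the edgeR adjusted p-values were 0.0556, 0.0512 and 0.105.

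*Gm7666* and *Gm10259* each had 31 unique stretches, and their parents were lower in miR-324-null samples. *Phb* was at 66.0 ± 3.62 CPM in the hippocampus of WT and 49.96 ± 5.58 CPM in that of miR-324-null mice and at 54.5 ± 3.61 and 37.4 ± 4.12 CPM in neocortex. *Kpna2* was at 18.4 ± 1.44 and 10.9 ± 4.30 CPM in hippocampus and at 20.5 ± 2.12 and 10.2 ± 3.20 CPM in neocortex. *Acsf2*, the parent of *Gm5540*, had the higher mean in miR-324-null samples, at 22.6 ± 3.71 against 25.6 ± 1.83 CPM in hippocampus and 17.98 ± 1.74 against 19.6 ± 2.79 CPM in neocortex. *Lasp1*, the parent of *Gm4875*, was at 119 ± 8.73 against 105 ± 4.51 CPM in hippocampus and 185 ± 12.4 against 164 ± 24.9 CPM in neocortex. How much of a parent's reads the estimate moved to its copy was not tested.

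**Figure D4:**
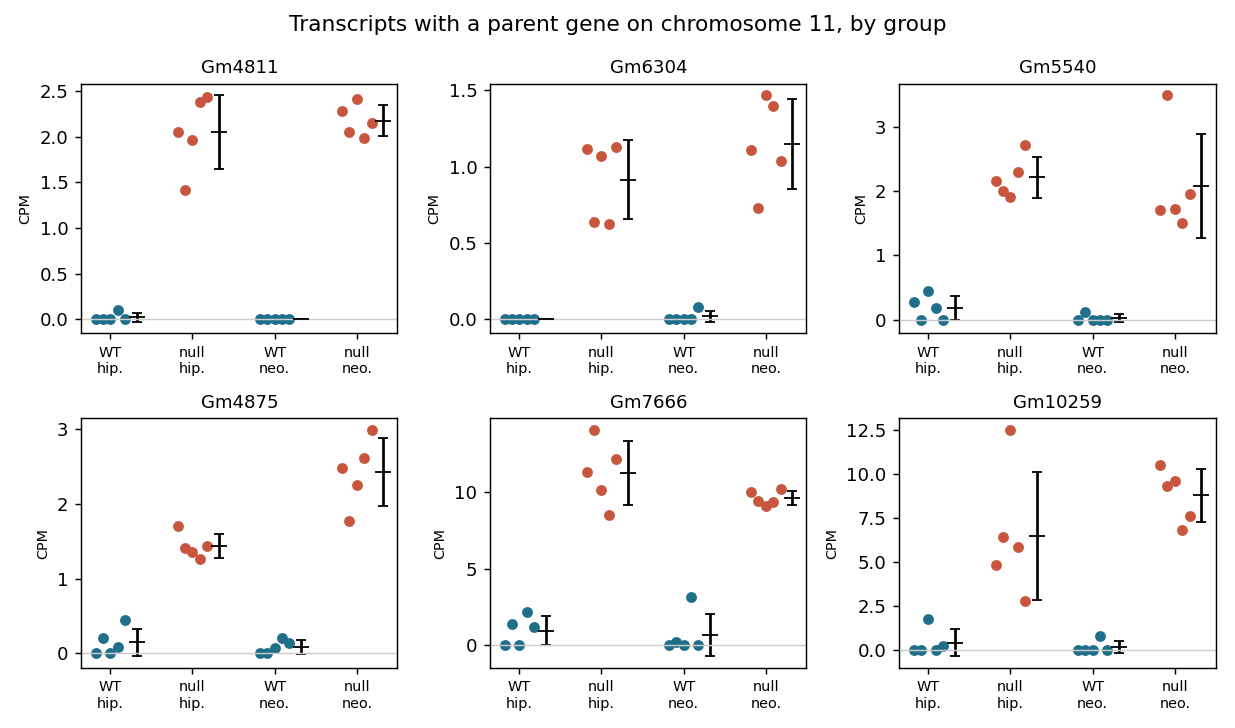
CPM of 6 members whose parent gene lies on chromosome 11 in WT (blue) and miR-324-null (red) samples of hippocampus (hip.) and neocortex (neo.), 1 point per sample, with the mean and SD of each group (n = 5) beside it. *Gm4811* and *Gm6304* are at most 0.104 CPM in any WT sample and at least 0.622 CPM in every miR-324-null sample.

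Between the tissues both directions were found. In WT samples 9 of 273 members (3.30%) differed between hippocampus and neocortex, against 10.1% of all transcripts, 5 of them higher in hippocampus, where 5.15% of all transcripts were higher, and 4 lower, where 4.95% were lower. In miR-324-null samples 6 of 289 (2.08%) differed, against 6.75%, 4 higher against 3.50% and 2 lower against 3.25%. Summed to genes, 41 of 316 members (12.97%) were called in WT, against 35.3% of all genes, and 27 of 332 (8.13%) in miR-324-null samples, against 26.8%. Whether these shares differ from those of transcripts of similar depth was not tested. Without WT hippocampus sample 2 or WT neocortex sample 2 the WT count was 3, without WT neocortex sample 3 it was 5 and without WT neocortex sample 4 it was 4. Without miR-324-null neocortex sample 2 the count in miR-324-null samples was 3.

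3 members were higher in hippocampus in both genotypes with no overlap between the tissues. *Mdm4-ps*, a long copy of the gene for the p53 inhibitor *Mdm4* at chrX:128261411-128267924 on the plus strand, had 4343 unique stretches and was 94.1% identical to its parent over 62.9% of its 6514 bases. It was at 4.60, 5.82, 4.79, 4.202 and 3.98 CPM in WT hippocampus and at 0.153, 0.244, 0.586, 0.394 and 0.860 CPM in WT neocortex. In miR-324-null samples it was at 5.29, 5.598, 3.84, 3.39 and 4.48 CPM in hippocampus and at 0.909, 0.740, 0.932, 0.435 and 0.620 CPM in neocortex. Every hippocampus sample was thus more than 3 CPM and every neocortex sample less than 1. The log2 difference was 3.35 (SE 0.445, edgeR adjusted p = 0.000843) in WT and 2.65 (SE 0.277, edgeR adjusted p = 0.000568) in miR-324-null samples. *Mdm4* was at 83.3 ± 8.48 CPM in WT hippocampus and 86.9 ± 9.01 CPM in WT neocortex, so the ranges of the parent overlapped.

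*Gm7832*, at chr5:91760696-91761575 on the minus strand, is a copy of *Vdac2*, which encodes a channel of the outer mitochondrial membrane, and had 502 unique stretches. In WT samples it was at 0.762, 1.75, 1.60, 1.09 and 0.954 CPM in hippocampus and at 0.393, 0.0836, 0.153, 0.0829 and 0.244 CPM in neocortex. In miR-324-null samples it was at 2.01, 2.31, 1.67, 1.56 and 2.60 CPM in hippocampus and at 0.260, 0.0592, 0.141, 0.196 and 0.126 CPM in neocortex. The tissues stood apart in each genotype. The log2 differences were 2.65 (SE 0.505, edgeR adjusted p = 0.00733) and 3.67 (SE 0.424, edgeR adjusted p = 0.000890), while *Vdac2* was at 155 ± 3.10 CPM in WT hippocampus and 155.7 ± 3.33 CPM in WT neocortex.

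*Pabpc1l2b-ps*, at chrX:103013698-103014387 on the plus strand, is related to genes for poly(A)-binding proteins and had 177 unique stretches. It was at 14.6, 16.2, 17.3, 17.2 and 14.0 CPM in WT hippocampus and at 12.5, 8.90, 11.1, 10.9 and 12.1 CPM in WT neocortex. In miR-324-null samples it was at 16.4, 16.5, 18.6, 15.8 and 19.8 CPM in hippocampus and at 12.7, 12.6, 12.5, 14.6 and 12.3 CPM in neocortex. The difference was small and every hippocampus sample was above every neocortex sample of its genotype. It came to 0.51 (SE 0.115, edgeR adjusted p = 0.0179) and 0.44 (SE 0.0963, edgeR adjusted p = 0.0225) on the log2 scale. In miR-324-null samples the call was lost without hippocampus sample 5 or without neocortex sample 1, 2, 3 or 5, with edgeR adjusted p-values of 0.0609, 0.0628, 0.0592, 0.0610 and 0.0532.

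The other calls between tissues were made in 1 genotype only at the level of transcripts, and none of these members passed the interaction test. Most of these calls were lost under several of the alternatives tried. In WT samples *Tpt1-ps3*, a copy of the abundant translation-linked gene *Tpt1* with no unique stretch, was higher in hippocampus by 0.53 on the log2 scale (edgeR adjusted p = 0.0242), and *Gm8730* by 0.32 (edgeR adjusted p = 0.0319). Between the tissues of miR-324-null samples *Gm8730* was not tested. Lower in WT hippocampus were *Gm48368* by -0.31, *Gm13002* by -1.03, *AC098880.2* by -0.54 and *Gm16385*, a copy of the actin gene *Actg1*, by -1.17 (edgeR adjusted p = 0.0213, 0.0250, 0.0251 and 0.0435). In miR-324-null samples *Rps23-ps1* was higher in hippocampus by 0.35 (edgeR adjusted p = 0.0144) and *Gm8707*, which is 81.1% identical to *Gapdh*, lower by -1.03 (edgeR adjusted p = 0.0407). Summed to genes, *AC098880.2*, *Gm13002*, *Gm16385*, *Gm48368*, *Gm8707* and *Rps23-ps1* were called in both genotypes in the same direction, with edgeR adjusted p-values from 0.00182 for *AC098880.2* in WT to 0.0388 for *Gm48368* in miR-324-null samples.

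*CT025671.2*, on chromosome 17 with 655 unique stretches, had the largest fitted difference of the members called in miR-324-null samples and is named for that after its values were seen. It was at 0, 0.0777, 0.0617, 0.149 and 0 CPM in miR-324-null hippocampus and at 0.729, 0.656, 1.42, 0.706 and 0.650 CPM in miR-324-null neocortex. It was at least 3.87-fold lower in hippocampus, with a fitted log2 difference of -3.68 (SE 0.657, edgeR adjusted p = 0.00825). In WT samples, where it was not tested, it was at 0.265, 0.197, 0, 0 and 0.149 CPM in hippocampus and at 0.812, 1.22, 0.916, 1.35 and 0.616 CPM in neocortex, on the same sides.

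**Figure D5:**
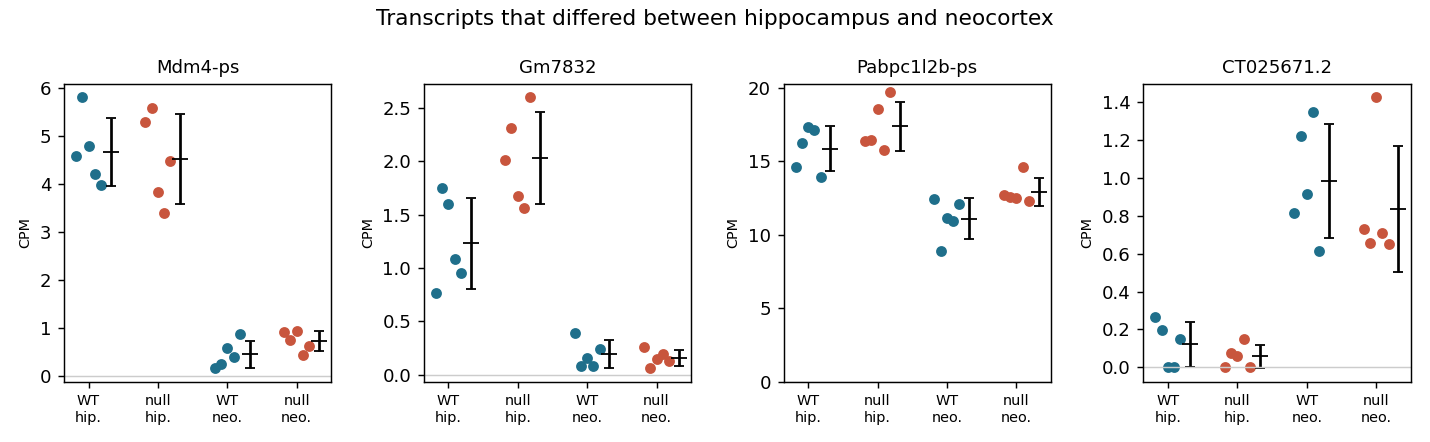
CPM of *Mdm4-ps*, *Gm7832*, *Pabpc1l2b-ps* and *CT025671.2* in WT (blue) and miR-324-null (red, null) samples of hippocampus (hip.) and neocortex (neo.), 1 point per sample, with the mean and SD of each group (n = 5) beside it. *Mdm4-ps* lies between 3.39 and 5.82 CPM in hippocampus and between 0.153 and 0.932 CPM in neocortex.

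Whether the genotype difference of a member differed between hippocampus and neocortex was tested on all 20 samples. Of 348 members 0 were called by edgeR and 0 by DESeq2, and 10 (2.87%) had an unadjusted edgeR p under 0.05, against 0.00240% of all transcripts called and 3.88% at an unadjusted p under 0.05. Summed to genes, 0 of 393 were called. For *Gm4811* the log2 difference between genotypes differed between the tissues by -1.53 (SE 0.702, hippocampus minus neocortex), and that of *Mdm4-ps* by -0.72 (SE 0.496), neither of which passed (edgeR adjusted p = 0.9999 for both).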

How the data were processed

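Per the labels and the paper's methods, kallisto was run by the authors on stranded mRNA-seq reads against the mouse transcriptome, and they deposited, for each transcript, an estimated count and a TPM value. The paper names GRCm38, while a processing note names a human build; the identifiers are those of mouse. Of the transcripts, 113580 were matched to GENCODE annotation of GRCm38, and 1690, with 0.509% to 0.556% of the counts of a library, were left out of the type assignment but kept in the fits.

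Estimated counts were rounded to whole numbers and fitted for all transcripts with edgeR 4.0.16 (R 4.3.3, limma 3.58.1), with its default filter on low counts, TMM scaling and its quasi-likelihood F-test, called at a Benjamini-Hochberg adjusted p of 0.05. Each comparison was fitted on its own samples, and the interaction on all 20. Levels are TMM-normalized CPM.

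Members named were the 10 of highest mean TPM, those called for genotype without overlap, and those called between tissues in both genotypes without overlap, each with its parent gene; others are said to be chosen after their values were seen, or are the remaining calls. Members and lists were chosen with earlier results of these data known. Depth and floors cover counting error and leave out how reads were shared among near-identical sequences. The fit was tested on simulated data. Alternatives were DESeq2 1.42.0, the tool the paper's methods name, other filters, limma on log2(TPM + 0.5), gene sums, a replicate block and each sample left out. The results of 2 marker lists are not reported here.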

Additional observations from a re-analysis of the deposited data

Results flagged for a closer look

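Among 64 groups of 5 samples of the named members, 4 held a sample far from the others, where chance alone gives about 1 in 20 such groups. *Gm4811* was at 0.104 CPM in WT hippocampus sample 4 and at 0 in the other 4 samples. *Gm6304* was at 0.0767 CPM in WT neocortex sample 5 and at 0 in the others. *Gm6472*, the copy of *Rps7*, was at 84.3 CPM in miR-324-null hippocampus sample 4 and between 99.1 and 104 CPM in the others. *Pabpc1l2b-ps* was at 14.6 CPM in miR-324-null neocortex sample 4 and between 12.3 and 12.7 CPM in the others.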

How the results depend on the processing

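In the count of members called for genotype in hippocampus, 1 in the report, DESeq2, limma on log2(TPM + 0.5), counts summed to genes and all 20 samples in 1 fit each gave 3, and leaving out 1 sample gave 0 to 2. In neocortex, 2 in the report, no filter on low counts gave 1, at least 10 counts in every sample of 1 group gave 4, limma 5, gene sums 6, all 20 samples 4 and leaving out 1 sample 0 to 4. Between tissues in WT, 9 in the report, no filter gave 4, DESeq2 15, gene sums 41 and leaving out 1 sample 3 to 10; in miR-324-null samples, 6 in the report, DESeq2 gave 14, limma 10, gene sums 27, all 20 samples 10 and leaving out 1 sample 3 to 8. Of the genotype interaction, 0 were called under every alternative run. The cause of these changes was not tested.

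The summed TPM differed between genotypes by -11.5% and -11.8% as a share of counts in hippocampus and neocortex, by 3.60% and 7.83% over members with at least 50 unique stretches, and by 7.20% and 9.69% without the 10 highest members. Between tissues it differed by -6.28% (WT) and -9.95% (miR-324-null) over members with at least 50 unique stretches. Leaving out 1 sample gave -6.81% to -2.47% and -4.56% to -1.85% between genotypes, and -3.19% to -0.256% and -5.52% to -1.12% between tissues. Under other thresholds 13, 15 and 14 members had the high-or-low pattern in all pairs, in place of 16; these were chosen after seeing the data.

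Of 18 fold changes, 317 alternative values kept the direction, 214 also the side of the threshold and 103 fell below it. *Mdm4-ps* kept its call in 18 of 18 alternatives in both genotypes, *Gm4811* in 12 of 18 in hippocampus and 12 of 17 in neocortex, and *Gm6304* in 5 of 17. Among calls between tissues *Gm7832* kept 17 (WT) and 18 (miR-324-null) of 18, *Pabpc1l2b-ps* 16 and 10 of 18, *CT025671.2* 12 of 13 and *Rps23-ps1* 16 of 18. *Gm48368* kept 11 of 18, *AC098880.2* and *Tpt1-ps3* 10, *Gm13002* and *Gm8730* 8, *Gm8707* 7 and *Gm16385* 6.

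The numbers do not pair the samples by the labels. Over all transcripts, deviations of same-numbered hippocampus and neocortex samples correlated between -0.0497 and 0.0801; over the 348 members tested jointly, between 0.154 and 0.417 in miR-324-null and between -0.0663 and 0.109 in WT samples. With the number as a replicate block 0 and 0 members were called for genotype. No mouse carries both genotypes, so here the block joined different mice, and its result cannot decide whether the genotype calls hold. It is among the alternatives counted above for *Gm4811* and *Gm6304*. Between tissues 2 and 2 members were called with the block. These were *Mdm4-ps* and *Gm48368* in WT and *Mdm4-ps* and *Gm7832* in miR-324-null samples, and every other call was lost: *Pabpc1l2b-ps* in both genotypes, *Gm7832*, *Tpt1-ps3*, *Gm8730*, *Gm13002*, *AC098880.2* and *Gm16385* in WT, and *CT025671.2*, *Rps23-ps1* and *Gm8707* in miR-324-null samples. At this depth a member under 3 counts in a library could not be told from 0.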
